A study of Mus musculus with 14 samples.

Results

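LIN28 proteins, TRIM71 and the let-7 microRNAs form a loop that separates embryonic stem cells from differentiated cells. The genes described here were chosen by name for their place in that loop and are *Lin28a*, *Lin28b*, *Trim71*, *Hmga2*, *Dicer1* and *Dis3l2*, 6 of the 52459 genes in the count tables. The data came from E14Tg2a mouse embryonic stem cells (mESCs) grown with serum and LIF, either wild type (WT) or carrying METTL14 R255K. METTL14 is the partner of METTL3 in the enzyme that writes N6-methyladenosine (m6A) on mRNA, and R255K is a knock-in made with CRISPR-Cas9 that puts lysine in place of an arginine. Knock-in lines were grown from single colonies, and the number of clones behind the libraries is not given in the sources used here. For mRNA lifetime, cells of both genotypes received actinomycin D at 5 µg/ml, which stops transcription, and were taken at 0, 4 and 8 h, with 1 library per genotype and time. For MeRIP-seq, the pull-down of RNA fragments with an antibody to m6A, untreated cells of each genotype gave 2 IP libraries with matching input, and 1 peak list was deposited per genotype.

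LIN28A and LIN28B bind let-7 precursors and keep them from being cut into mature microRNAs. Precursors held by LIN28 receive a tail of uridines from TUT4 or TUT7 and are degraded by the exonuclease DIS3L2, while the other precursors are cut by DICER1. Mature let-7 pairs through its seed with sites in the 3′UTRs of target mRNAs, among them those of the LIN28 proteins themselves, of the RNA-binding ubiquitin ligase TRIM71 and of the chromatin protein HMGA2.

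The mature sequences show what the targets have to match. Of 11 mature let-7 family sequences in RefSeq (GRCm38.p6 table), 10 shared the seed GAGGUAG at bases 2 to 8, and let-7j, with GAGGUAU, was the exception. Printed from the 5′ end with the seed in capitals are let-7a, 2 members that differ from it outside the seed, and the exception.
let-7a-5p: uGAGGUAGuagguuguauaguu
let-7g-5p: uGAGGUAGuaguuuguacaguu
miR-98-5p: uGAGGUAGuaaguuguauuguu
let-7j: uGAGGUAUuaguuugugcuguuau

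The complement of the shared seed, CTACCTC, was searched on the mRNA strand in the longest annotated 3′UTR of each gene (GENCODE vM21, mm10). *Lin28a* held 2 matches in 2775 bases, *Lin28b* 4 in 4445 bases, *Trim71* 4 in 5512 bases and *Hmga2* 4 in 3014 bases. The 3′UTRs of *Dicer1* (3851 bases) and *Dis3l2* (350 bases) held 0 matches, which says only that these letters are not in those windows. Over 10347 genes tested with a 3′UTR, 10.5% held a match, and 21.2% of those with a 3′UTR of at least 2000 bases. 4 or more matches were held by 9 genes, 3 of which were *Lin28b*, *Trim71* and *Hmga2*. The matches of *Lin28a* and *Trim71*, and the match nearest to the stop codon in *Lin28b* and *Hmga2*, are printed in 30 bases each with the match in capitals. All 8 were followed by an A, a base known to favour pairing by microRNAs, and the other 6 were not.
Lin28a site 1, chr4:134005189-134005218, minus strand: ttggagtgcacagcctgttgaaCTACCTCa
Lin28a site 2, chr4:134004551-134004580, minus strand: atgctttgagatcgccacaaacCTACCTCa
Lin28b site 1, chr10:45381022-45381051, minus strand: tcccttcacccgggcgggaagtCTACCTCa
Trim71 site 1, chr9:114512472-114512501, minus strand: aaagtacaacattgcctaagtcCTACCTCa
Trim71 site 2, chr9:114512376-114512405, minus strand: cctgtgaagtgataatttctatCTACCTCa
Trim71 site 3, chr9:114509047-114509076, minus strand: gattttgtttagtatggattttCTACCTCa
Trim71 site 4, chr9:114509021-114509050, minus strand: ctcaattttggcaaaaagttgtCTACCTCa
Hmga2 site 1, chr10:120364224-120364253, minus strand: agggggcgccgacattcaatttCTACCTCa

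The distance of the matches from the stop codon varied. The nearest began 36 bases past it in *Lin28b*, 58 in *Hmga2* and 166 in *Trim71*, followed there by 262, against 909 and 1547 in *Lin28a*. The matches of *Trim71* at 3591 and 3617 bases were neighbours. In *Lin28b* the others began at 2410, 2582 and 3998 bases, and in *Hmga2* at 1295, 1733 and 2591 bases.

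The libraries set limits on every value that follows. The 6 actinomycin D libraries held 13812160 to 18813640 counts. With 1 library per genotype and time no difference at a time could be tested, and intervals are 95% intervals of counting error only. A level is called past the size rule where it differs by more than 1.5-fold, and the share of the 11869 genes tested (mean of at least 1 FPKM at 0 h) past that rule is given with the counts. FPKM, the count of a gene scaled to its exon length and to the total of the library, was computed here. The exon lengths in the tables join all annotated transcripts, which lowers the FPKM of *Hmga2*, *Dis3l2*, *Lin28b* and *Dicer1*, whose longest coding mRNAs are 3810, 3154, 5402 and 9851 bases of 6772, 8901, 9065 and 16750. The ratio of R255K to WT at 0 h varied with base composition, and which library was skewed was not tested. The median log2 ratio was −0.47 over 2900 genes with an exon GC content under 45% and 0.31 over 2681 genes at 55% or more. At 4 h these medians lay between 0.19 and 0.25 over 4 GC classes, and at 8 h between 0.43 and 0.55. Exon GC content was 40.2% in *Lin28b*, 41.7% in *Hmga2*, 42.8% in *Dis3l2*, 45.6% in *Dicer1*, 50.4% in *Lin28a* and 53.8% in *Trim71*. Values with the GC trend subtracted are therefore given for the 6 genes and, at 0 h, for the other named genes whose value they moved most. The subtraction removes the whole fitted curve, and with it the general level of all genes. At 4 and 8 h, where the GC classes differed little, it mostly centres the ratios on the other genes and says little about base composition. All 8 mESC markers (among them *Pou5f1*, *Sox2* and *Nanog*) were at 173 FPKM or more in WT and 80.4 or more in R255K cells at 0 h, while the highest of the markers of endoderm, mesoderm, neural ectoderm and fibroblasts, *Sox1*, was at 13.4 FPKM in WT. The summed levels of these lists at 0 h were 5.37 FPKM in WT and 5.16 in R255K for endoderm, 1.51 and 4.19 for mesoderm, 16.5 and 9.30 for neural ectoderm, and 1.66 and 5.96 for fibroblasts, and their part in the results was not tested. *Mettl14* gave 681, 376 and 232 counts in WT libraries at 0, 4 and 8 h, against 299, 280 and 209 from R255K cells, and the substitution itself cannot be read from counts per gene.

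In untreated WT cells the 6 genes spanned a wide range of levels, here as FPKM over the joined exons. *Lin28a* was highest at 114 FPKM (112 to 117), followed by *Trim71* at 49.6 (48.5 to 50.7) and *Dicer1* at 8.33 (8.01 to 8.67). *Lin28b* at 4.70 (4.36 to 5.05) and *Hmga2* at 4.49 (4.12 to 4.89) could not be told apart by their intervals, and *Dis3l2* stood at 3.47 (3.18 to 3.77). In R255K cells at 0 h *Lin28a* and *Trim71* again led at 141 and 52.1 FPKM and *Dicer1* followed at 10.7. *Lin28b* at 3.17 (2.88 to 3.47) and *Dis3l2* at 3.05 (2.76 to 3.35) overlapped there, and *Hmga2* stood at 1.56 (1.33 to 1.81). The order of the lower 3 depended on the length used. Over the longest coding mRNA, a choice added after seeing the data, *Dis3l2* was at 9.79 FPKM in WT (8.98 to 10.7), above *Hmga2* at 7.98 (7.32 to 8.69) and *Lin28b* at 7.88 (7.32 to 8.47), whose intervals overlapped. In R255K cells it was at 8.59 (7.80 to 9.45), above *Lin28b* at 5.31 (4.83 to 5.83) and *Hmga2* at 2.77 (2.36 to 3.22). The order of *Lin28a*, *Trim71* and *Dicer1* above them was the same with both lengths.

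**Figure D1:**
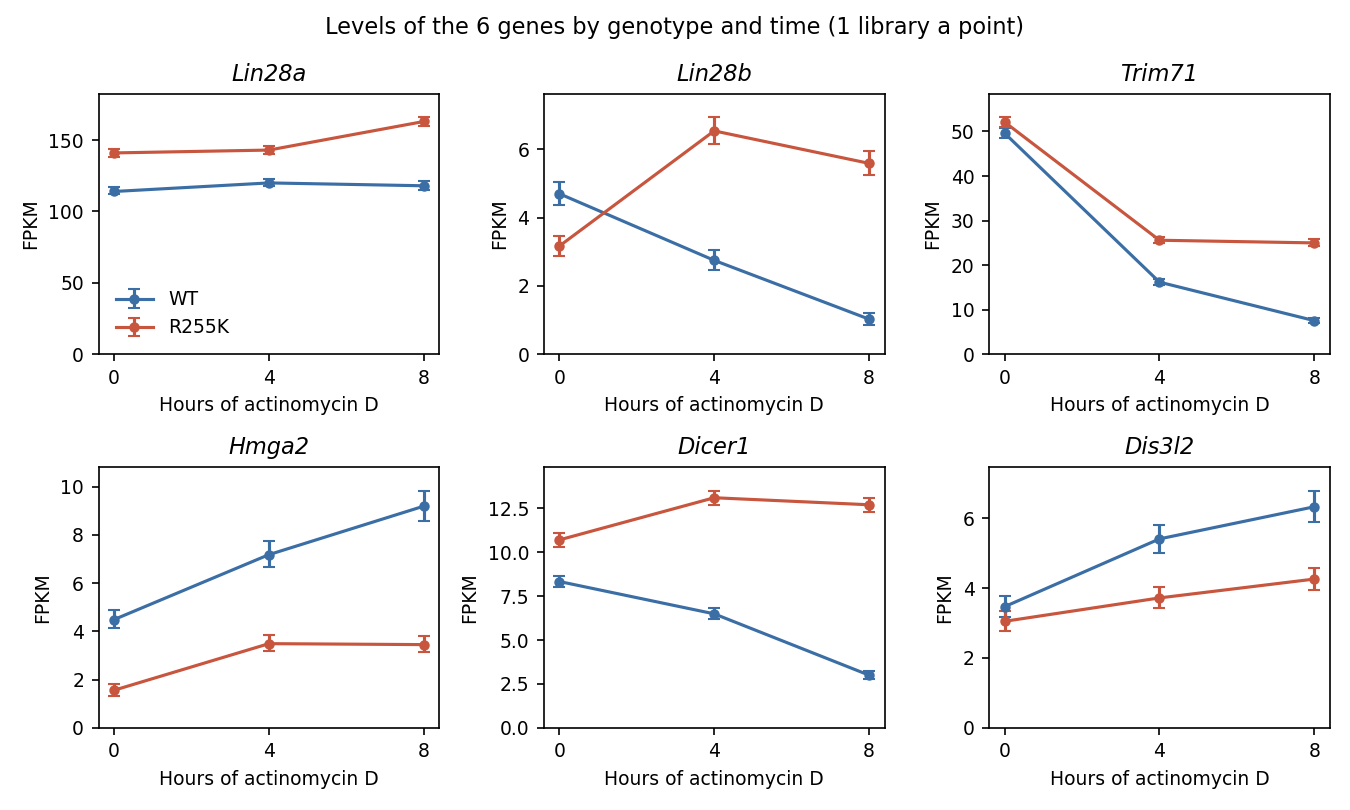
FPKM of the 6 genes (y axis, from 0, a scale per gene) against hours of actinomycin D (x axis) in WT (blue) and R255K (red) cells, 1 library a point with the 95% Poisson interval of its count. *Lin28b* and *Dicer1* fell in WT and lay above their 0 h level in R255K cells at 8 h, *Trim71* fell in both, and with library totals *Hmga2* and *Dis3l2* rose in both.

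Before actinomycin D only *Hmga2* was past the size rule, and it was lower in R255K cells. Of all genes tested, 20.6% were over 1.5-fold higher and 19.3% over 1.5-fold lower in R255K cells at 0 h. At 4 h *Lin28b*, *Trim71* and *Dicer1* were higher and *Hmga2* lower, against 33.9% and 9.58% of all genes. At 8 h the same 4 genes were past the rule in the same directions, against 46.7% and 10.2%. 3 genes of 6 higher at 8 h is close to the share of all genes, so this count says nothing particular about the loop. The median log2 ratio over all genes was 0.06 at 0 h, 0.22 at 4 h and 0.49 at 8 h with library totals, and with other scalings it ran from −0.10 to 0.02 at 0 h, from −0.05 to 0.42 at 4 h and from −0.11 to 0.85 at 8 h.

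**Figure D2:**
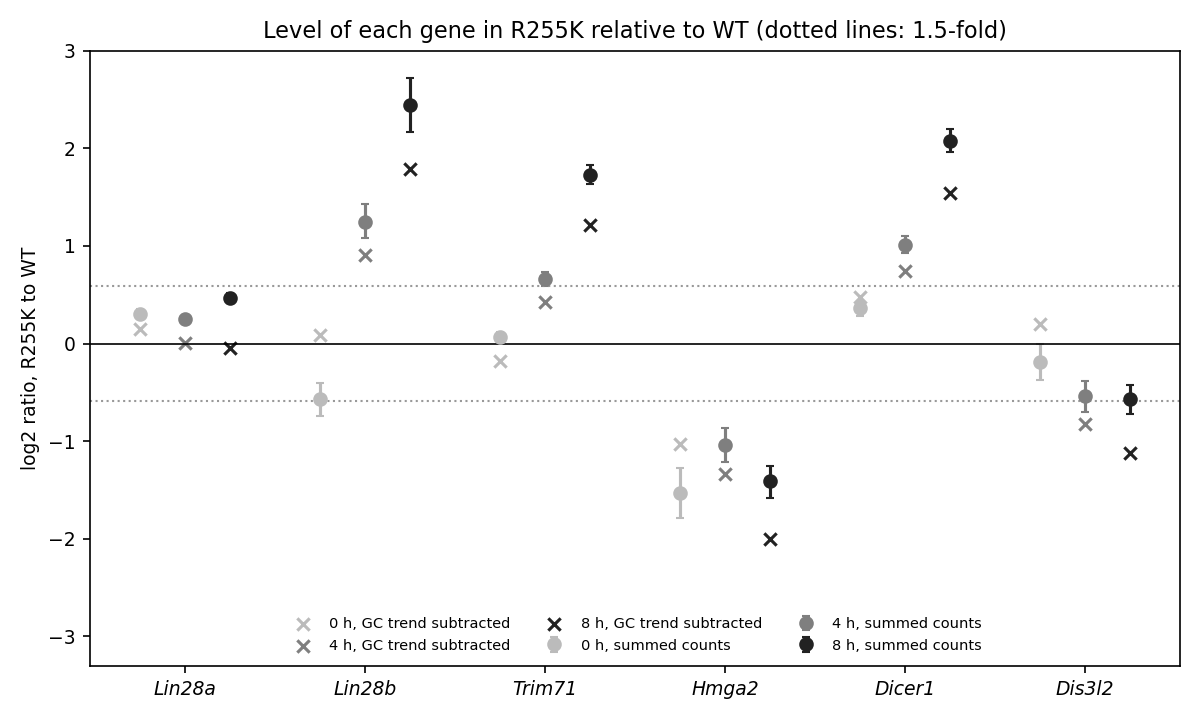
Log2 ratio of the level in R255K to that in WT cells (y axis) for each gene (x axis) at 0, 4 and 8 h, with 95% counting intervals on the circles, crosses for the ratio after the GC trend was subtracted, and dotted lines at 1.5-fold. *Lin28b*, *Trim71* and *Dicer1* climb with time to 2.44, 1.73 and 2.08, and *Hmga2* stays between −1.53 and −1.04.

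*Lin28a*, the LIN28 gene with the higher level here, held its share of the counts through 8 h in both genotypes with library totals. It is on the minus strand of chromosome 4, 134003330 to 134018841. In WT cells its level was 114, 120 and 118 FPKM at 0, 4 and 8 h, and R255K cells gave 141, 143 and 163 FPKM. At each time the R255K library was the higher, by 1.23-fold (1.2 to 1.27) at 0 h, 1.19-fold (1.15 to 1.23) at 4 h and 1.39-fold (1.35 to 1.43) at 8 h. These ratios sat near the middle of all genes, with 65.9%, 51.4% and 49.5% of genes below. At 8 h the log2 ratio was 0.47 with library totals, −0.13 with median-of-ratios size factors, −0.05 with the GC trend subtracted and 0.84 relative to ribosomal protein genes, so its direction depended on the scaling. After 8 h of actinomycin D *Lin28a* stood at 103% of its 0 h level in WT (99.8 to 107) and 116% in R255K cells (113 to 119), and no decay rate above 0 could be estimated in either. These shares were 62.1% in WT and 100% in R255K cells relative to ribosomal protein genes, with a half-life ratio of 10.2, and 34.5% and 24.6% relative to *Gapdh*, so the lack of a fall depended on the scaling. All such shares are relative to the counts that remained in the library, so they can exceed 100%.

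*Lin28b*, the paralogue of *Lin28a*, fell in WT cells and, with library totals, did not fall in R255K cells. It is on the minus strand of chromosome 10, 45376620 to 45486395. WT cells had 742, 373 and 129 counts at 0, 4 and 8 h (4.70, 2.75 and 1.03 FPKM), and R255K cells 449, 1103 and 953 (3.17, 6.54 and 5.59 FPKM). The genotypes changed places between 0 and 4 h. At 0 h the R255K level was 0.674 of that in WT (0.598 to 0.759), which the GC trend removed (log2 ratio −0.57 before and 0.09 after), and which 3 other scalings put past the size rule (−0.72 to −0.61). At 4 h it was 2.38-fold higher in R255K cells (2.12 to 2.69) and at 8 h 5.42-fold (4.51 to 6.57), a ratio above that of 92.2% of genes. With the GC trend subtracted the log2 ratios were 0.91 at 4 h and 1.79 at 8 h. WT cells kept 21.9% of the 0 h level at 8 h (18.1 to 26.5), with a half-life of 4.28 h (3.78 to 4.93), and R255K cells stood at 176% (158 to 198), which gives no half-life. Relative to *Gapdh* the shares at 8 h were 7.34% in WT and 37.5% in R255K cells.

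*Trim71*, a ubiquitin ligase and mRNA repressor of stem cells, was a short-lived mRNA in WT cells and fell more slowly in R255K cells. It is on the minus strand of chromosome 9, 114507133 to 114564369. The WT libraries held 8065, 2265 and 974 counts of it at 0, 4 and 8 h (49.6, 16.2 and 7.56 FPKM), against 7599, 4444 and 4398 from R255K cells (52.1, 25.6 and 25.0 FPKM). The genotypes began within 1.05-fold of each other (1.02 to 1.08) and R255K cells were 1.58-fold higher at 4 h (1.5 to 1.66) and 3.32-fold at 8 h (3.09 to 3.56). The call at 4 h was lost with TMM, with median-of-ratios size factors and with the GC trend subtracted (log2 ratios 0.44, 0.39 and 0.43). Relative to the median of all genes at 4 h, with no use of GC content, the log2 ratio was 0.44. The call at 8 h was not lost (1.13 to 2.09 over the alternatives). WT cells kept 15.2% at 8 h (14.2 to 16.3) and R255K cells 48.1% (46.4 to 49.9). Between 4 and 8 h the WT level fell further while the R255K level stayed at 25.6 and 25.0 FPKM.

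With library totals, *Trim71* was the only one of the 6 genes with a half-life in both genotypes, 2.69 h in WT (2.61 to 2.78) and 5.16 h in R255K cells (4.94 to 5.39). The ratio was 1.92 (1.82 to 2.02). Over the 5542 genes with a half-life in both, the median ratio was 1.98 and 68.8% exceeded 1.5, so the half-life of *Trim71* changed about as much as that of the middle gene. Relative to *Gapdh* the half-life ratio was 0.529, the opposite direction. The shares kept at 8 h relative to *Gapdh* were 5.10% in WT and 10.2% in R255K cells, the same direction as with library totals. The half-life ratio also rests on the 4 h libraries. *Gapdh* itself ran from 995 to 242 and 2357 counts in WT over the 3 times, against 331, 787 and 1875 with the substitution. Shares relative to *Gapdh* are given at 8 h alone and do not describe the course in between.

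*Hmga2*, a let-7 target whose protein bends DNA in growing embryonic cells, was lower in R255K cells at every time with library totals. It is on the minus strand of chromosome 10, 120361275 to 120476469. WT cells had 530, 729 and 860 counts (4.49, 7.18 and 9.19 FPKM) and R255K cells 165, 440 and 440 (1.56, 3.49 and 3.45 FPKM) at 0, 4 and 8 h. Each R255K library was below the WT library at 0 h. The level was 2.88-fold lower in R255K cells at 0 h (2.42 to 3.45), 2.06-fold lower at 4 h (1.82 to 2.32) and 2.66-fold lower at 8 h (2.37 to 2.99), and 3.68%, 3.56% and 1.67% of genes had a lower ratio. With the GC trend subtracted the log2 ratios were −1.03, −1.34 and −2.0. With TMM, median-of-ratios size factors or ribosomal protein genes they also stayed past the size rule. Levels relative to *Gapdh* were not computed, and *Gapdh* had 995 counts in WT and 331 in R255K cells at 0 h. With library totals both genotypes rose with time, to 205% in WT (184 to 229) and 222% in R255K cells (185 to 267) at 8 h, so that no decay rate could be estimated. Relative to *Gapdh* the shares at 8 h were 68.5% in WT and 47.1% in R255K cells.

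*Dicer1*, the enzyme that cuts precursors into mature microRNAs, fell in WT and, with library totals, stayed up in R255K cells. It is on the minus strand of chromosome 12, 104687742 to 104751952. At 0, 4 and 8 h the WT libraries held 2433, 1630 and 694 counts (8.33, 6.49 and 3.0 FPKM) and the R255K libraries 2796, 4088 and 3991 (10.7, 13.1 and 12.7 FPKM). Every R255K library was above every WT library. The R255K level was 1.28-fold higher at 0 h (1.21 to 1.35), 2.02-fold at 4 h (1.91 to 2.14) and 4.22-fold at 8 h (3.89 to 4.58). With the GC trend subtracted the log2 ratios were 0.48, 0.74 and 1.54. WT cells kept 36.0% at 8 h (33.0 to 39.2), with a half-life of 7.29 h (6.56 to 8.22), and R255K cells stood at 119% (113 to 125). Relative to *Gapdh* the shares at 8 h were 12.0% in WT and 25.2% in R255K cells. The half-life ratio relative to *Gapdh*, which also uses the 4 h libraries, was 0.0384, the opposite direction.

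*Dis3l2*, the exonuclease that degrades uridylated let-7 precursors, rose with time in both genotypes with library totals. Relative to *Gapdh* it stood below its 0 h level at 8 h in both. It is on the plus strand of chromosome 1, 86703808 to 87050095. WT cells had 538, 721 and 778 counts (3.47, 5.41 and 6.33 FPKM) and R255K cells 424, 616 and 713 (3.05, 3.72 and 4.26 FPKM). R255K cells were lower at each time, by 1.14-fold at 0 h (1.00 to 1.30), 1.45-fold at 4 h (1.30 to 1.62) and 1.49-fold at 8 h (1.34 to 1.65), all within the size rule. With TMM, median-of-ratios size factors and the GC trend subtracted, the values were past it at 4 h (log2 ratios −0.76, −0.81 and −0.82) and at 8 h (−1.0, −1.18 and −1.12), and the difference at 0 h turned to 0.20 with the GC trend subtracted. At 8 h WT cells stood at 182% (163 to 204) and R255K cells at 140% (124 to 158) of the 0 h level, against 61.0% and 29.7% relative to *Gapdh*.

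The share kept from 0 to 8 h, a measure added after the data were seen because 5 of the 6 genes had no half-life in at least 1 genotype, was compared between genotypes for all 6. It was 8.04 times as large in R255K as in WT cells for *Lin28b* (6.47 to 10.0), 3.30 times for *Dicer1* (2.99 to 3.63) and 3.16 times for *Trim71* (2.93 to 3.41). The ratio was 1.12 for *Lin28a* (1.08 to 1.17), 1.08 for *Hmga2* (0.879 to 1.33) and 0.766 for *Dis3l2* (0.651 to 0.902). Of all genes tested, 44.2% had a kept share over 1.5-fold higher and 9.39% over 1.5-fold lower in R255K cells, so 3 of 6 higher is again near the background. Single genes stood at different places within it, since 97.3% of genes lay below *Lin28b*, 83.1% below *Dicer1* and 82.0% below *Trim71*, against 40.9% below *Lin28a*, 38.8% below *Hmga2* and 17.1% below *Dis3l2*. With the GC trend subtracted in each library the ratios were 3.17 for *Lin28b*, 2.54 for *Trim71*, 2.04 for *Dicer1*, 0.835 for *Lin28a*, 0.496 for *Hmga2* and 0.392 for *Dis3l2*, so the value of *Lin28b* is the one that moved most and *Hmga2* and *Dis3l2* then passed the size rule downward. *Dis3l2* also passed it downward with TMM (log2 ratio −0.77), median-of-ratios size factors (−0.88) and *Gapdh* (−1.04), and relative to ribosomal protein genes its ratio was 1.1. The median log2 ratio of all genes was 0.41 and went from −0.25 to 0.93 with the scaling. Relative to this median, a difference that a common scaling of each library cannot change, the log2 ratios were 2.60 for *Lin28b*, 1.31 for *Dicer1*, 1.25 for *Trim71*, −0.24 for *Lin28a*, −0.30 for *Hmga2* and −0.79 for *Dis3l2*.

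**Figure D3:**
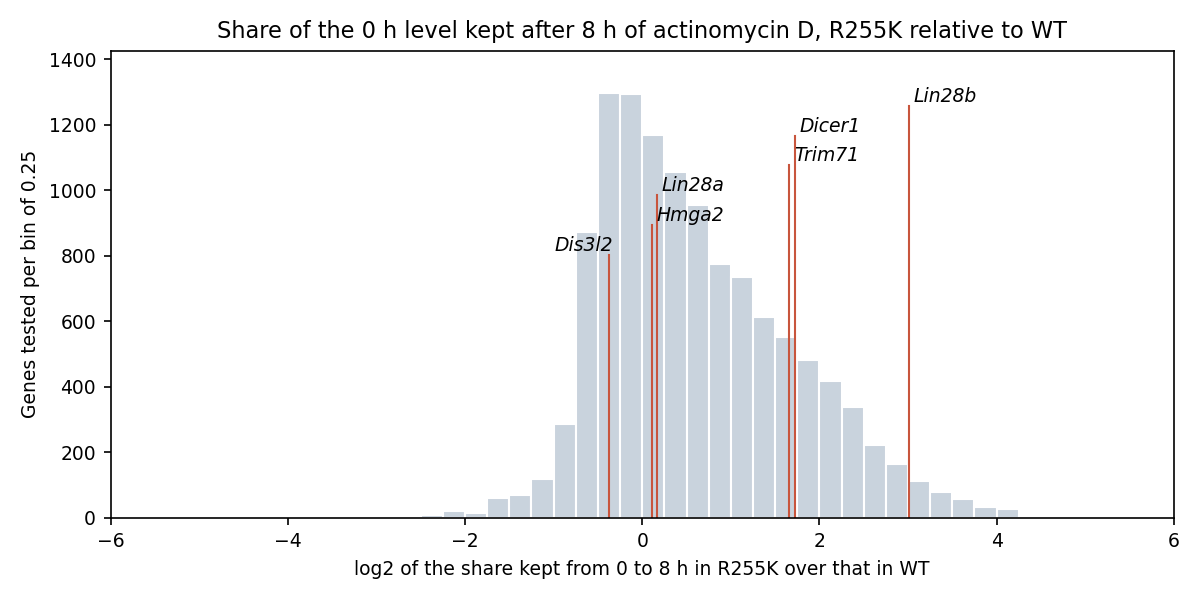
Number of genes tested (y axis) by the log2 ratio of the share kept from 0 to 8 h in R255K over that in WT cells (x axis, bins of 0.25), with the 6 genes as red lines. *Dis3l2*, *Hmga2* and *Lin28a* lie in the bulk of the genes and *Trim71*, *Dicer1* and *Lin28b* to its right, *Lin28b* at 3.01.

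Only *Trim71* and *Dicer1* carried m6A peaks. *Lin28a*, *Lin28b*, *Hmga2* and *Dis3l2* had 0 peaks on their exons in either list, while 57.4% of the genes tested had an exonic peak in WT and 43.6% in R255K cells. Of 567 genes at 100 FPKM or more in WT, as *Lin28a* was, 41.1% had a WT peak. The read depth behind the lists is unknown, and a missing peak is not a measured absence of m6A. Of the 3 genes whose kept share was over 1.5-fold higher in R255K cells, *Lin28b* thus had no peak in either list.

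On *Trim71* both genotypes had peaks over the 5′ part and around the stop codon. The WT peak of the 5′ part, chr9:114562303-114564336, was 2034 bp wide and enriched 5.79-fold over input with a −log10 q of 125, higher than 95.0% of WT peaks by q. Its R255K counterpart, chr9:114563031-114564340, was 1310 bp wide with values of 6.46 and 113, and the summits lay 27 bases apart in the 5′UTR. The second WT peak, chr9:114512552-114514136, was 1585 bp wide, began just upstream of the last exon, ended 93 bases past the stop codon, and was enriched 3.42-fold with a −log10 q of 60.9. In R255K cells 2 separate peaks covered 54.2% of it. The peak at chr9:114513047-114513634 was enriched 2.24-fold (−log10 q 12.1). The peak over the stop codon, chr9:114512581-114512851, was enriched 2.85-fold (22.6). The first let-7 match of *Trim71* began 73 bases past the end of the WT peak and 102 bases past the R255K peak, and no seed match of any of the 6 genes lay in a peak.

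*Dicer1* had 5 WT peaks, as 1.97% of genes with a WT peak had 5 or more, and 3 R255K peaks. Both lists held the 2 strongest by q, in coding sequence. At chr12:104696203-104697268 in WT the enrichment was 8.07-fold and the −log10 q 94.9, against 6.56 and 44.0 at chr12:104696506-104697193 in R255K cells, with summits 1 base apart. At chr12:104702421-104703155 the values were 6.81 and 90.4 in WT, against 7.86 and 68.0 at chr12:104702428-104703047 in R255K cells, with summits 3 bases apart. 3 WT peaks had no counterpart. The peak over the stop codon, chr12:104691470-104691717, was enriched 3.74-fold (−log10 q 22.9), and that at chr12:104694679-104694886 3.61-fold (11.4). The third, chr12:104700199-104700412, 7.25-fold (25.9), and its summit lay in an intron beside the exon it touched. R255K cells had a peak of their own at the 5′ end, chr12:104751788-104752003, enriched 4.20-fold (−log10 q 6.27), while 13.1% of exonic R255K peaks had no WT counterpart.

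On both genes together, 3 of 7 WT peaks had no overlapping R255K peak, against 47.9% of the 13870 exonic WT peaks, so the loss was near the background. The 3 were all on *Dicer1*. Overlap of peaks does not measure the amount of m6A. By MeRIP-qPCR normalized to *Gapdh*, the paper reported a decreased m6A peak on *Trim71* in R255K cells. With WT peaks of at least 4-fold enrichment alone, 1 of 4 was lost.

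**Figure D4:**
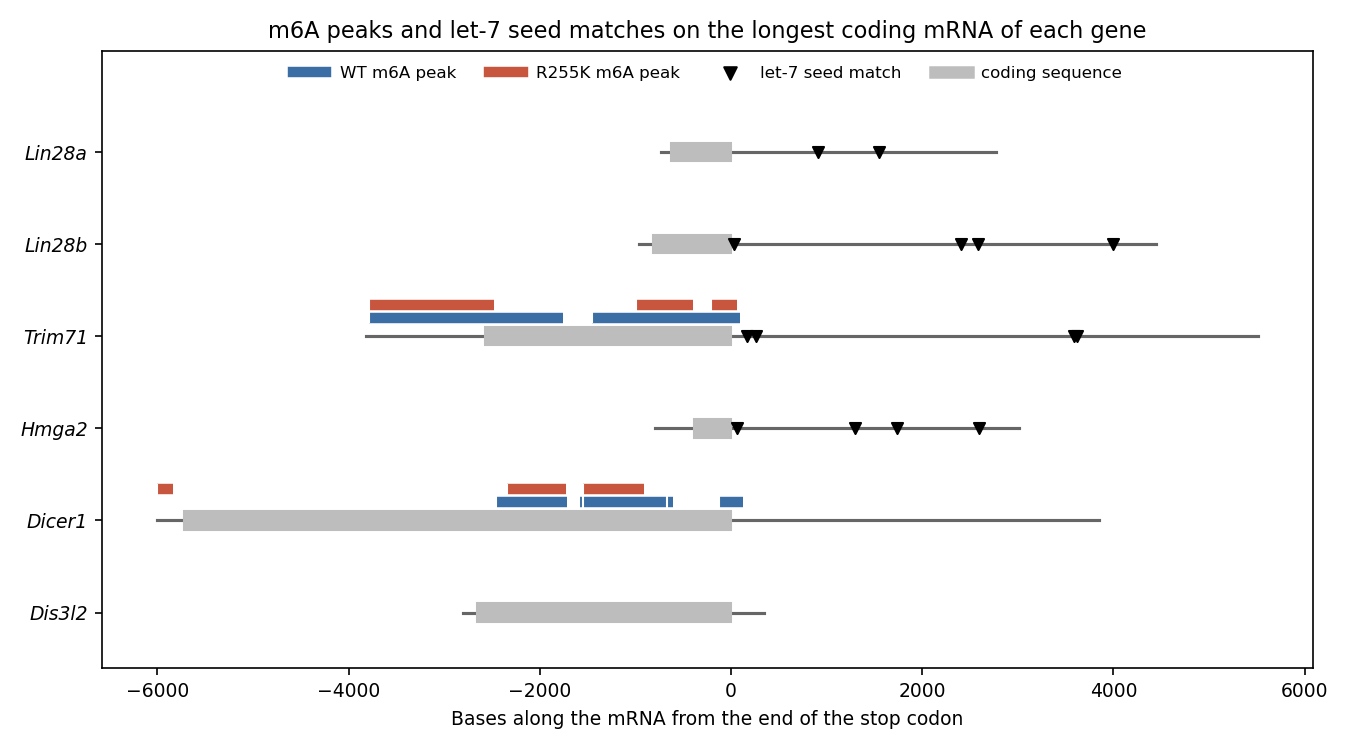
Longest coding mRNA of each gene (rows) with bases counted from the end of the stop codon (x axis), coding sequence as grey boxes, let-7 seed matches as black triangles, and WT (blue) and R255K (red) m6A peaks projected on the exons. Peaks sit on *Trim71* and *Dicer1* alone, and the seed matches lie in the 3′UTRs of *Lin28a*, *Lin28b*, *Trim71* and *Hmga2*.

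The sequences at the summits show the letters under these peaks. GGAC, the core of the motif that the methyltransferase prefers, was looked for in 201 bases around each summit, read along the mRNA. It was present at 4 of the 4 WT summits in exons of *Dicer1* and at 1 of the 2 of *Trim71*, against 78.8% of all exonic WT peaks and 82.0% of R255K peaks, so its presence is common. Around the summits of the *Dicer1* peaks found in both lists and the *Trim71* peak over the stop codon in R255K cells, 101 bases of coding sequence are printed with GGAC in capitals. The A of the nearest GGAC lay 7, 2 and 2 bases from the summit. For the lost *Dicer1* peak over the stop codon and the 5′ peak of *Trim71*, 30 bases of UTR are given.
Dicer1, chr12:104702568-104702668, minus strand: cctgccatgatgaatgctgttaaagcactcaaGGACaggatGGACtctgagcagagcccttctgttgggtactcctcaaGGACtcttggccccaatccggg
Dicer1, chr12:104696633-104696733, minus strand: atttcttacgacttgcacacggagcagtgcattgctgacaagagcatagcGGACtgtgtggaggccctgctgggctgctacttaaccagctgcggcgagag
Trim71, chr9:114512675-114512775, minus strand: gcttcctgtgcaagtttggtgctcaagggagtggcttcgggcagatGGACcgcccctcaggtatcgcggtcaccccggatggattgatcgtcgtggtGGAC
Dicer1, lost peak, chr12:104691556-104691585, minus strand: GGACtcacaggcggcaagacagcGGACcag
Trim71, 5′ peak, chr9:114563302-114563331, minus strand: tgGGACcaaattggtttgcgccgcggGGAC

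The other genes of the pathway were taken from lists. Of 15 other genes of let-7 biogenesis and precursor turnover tested, 1 was over 1.5-fold higher and 3 lower in R255K cells at 0 h (20.6% and 19.3% of all genes), and 4 higher and 0 lower at 8 h (46.7% and 10.2%), and their median log2 ratio was then 0.34 against 0.49 over all genes. Their kept share was over 1.5-fold higher in 7 and lower in 0, against 44.2% and 9.39% of all genes, with a median log2 ratio of 0.38 against 0.41. *Zcchc11*, which encodes TUT4, fell from 811 to 280 and 65 counts in WT libraries, while those of R255K held 462, 677 and 389, with a log2 ratio of −0.66 at 0 h, 0.00 with the GC trend subtracted, and 2.14 at 8 h. *Zcchc6* (TUT7), which falls outside the rule for named genes and was chosen after its values were seen, gave 614, 244 and 143 counts in WT and, in the other genotype, 397, 406 and 391. In both, R255K was below WT at 0 h and above it at 4 and 8 h, as in *Lin28b*. Medians over the 2900 genes with an exon GC content under 45% took the same course (log2 ratios −0.47, 0.25 and 0.51). *Zcchc11*, with an exon GC content of 40.2%, belongs to that class, so the direction of its course is not particular to the pathway. *Zcchc6*, at 45.7%, belongs to the class of 45 to 50%, whose medians were 0.03, 0.21 and 0.47. Its log2 ratio at 0 h was −0.47, and −0.35 with the GC trend subtracted. The part of base composition in either course was not tested.

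The remaining genes named by the rule in this list were *Tarbp2*, a partner of DICER1 (log2 ratio at 0 h 0.77, and 0.52 with the GC trend subtracted, inside the size rule), *Ago2*, the slicing Argonaute (−0.95), *Ago3* (−1.36, and −0.84) and *Zc3h7a* (−1.14, and −0.74). The counts of *Ago2* at 0, 4 and 8 h were 6405, 3135 and 1374 in WT, against 2974, 2797 and 2441 with the substitution. *Ago3* was under the level filter. The 12 let-7 and miR-98 precursor genes listed in the tables had 0 counts in all 6 libraries for 10 of them and 1 count at most in a library for the others, so the microRNAs were not measured by these mRNA libraries.

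Of 31 other let-7 target genes tested, known as targets from earlier work, 8 were higher and 5 lower past 1.5-fold at 0 h, against 20.6% and 19.3% of all genes, and 24 were higher and 3 lower at 8 h, against 46.7% and 10.2%. Their median log2 ratio was −0.03 at 0 h, 0.68 at 4 h and 1.04 at 8 h, against 0.06, 0.22 and 0.49 over all genes. The kept share was over 1.5-fold higher in 17 of 31 and lower in 1, against 44.2% and 9.39% of all genes, with a median log2 ratio of 0.72 against 0.41. The list was chosen with earlier results of these data known. An exonic WT peak was carried by 27 of these 31 targets and by 11 of 17 other biogenesis genes, against 57.4% of genes tested. The part of the peaks in these values was not tested. Of 54 exonic WT peaks on the listed targets, 35.2% had no overlapping R255K peak, and of those on the biogenesis genes 10 of 20, against 47.9% of all exonic WT peaks.

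The 6 targets with the widest ratios at 0 h went in both directions. *Thbs1*, a secreted matrix protein, gave 16 counts in WT and 271 in R255K cells, a log2 ratio of 4.24. *Ccnd2*, a cyclin of the G1 phase, had 189 and 1162 (2.78), *Peg10* 3808 and 15134 (2.15) and *Mycn*, a transcription factor of growth, 3520 and 8467 (1.42). *Igf2bp3*, an RNA-binding protein of embryonic cells, had 1171 counts in WT and 263 in R255K cells (−2.0), and *Smarcad1*, a chromatin remodeller, 4060 and 1411 (−1.37, and −0.51 with the GC trend subtracted). The lower level of *Igf2bp3* was seen at each time, with log2 ratios of −1.88 at 4 h and −2.10 at 8 h, as in *Hmga2*.

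A list of genes linked to TRIM71 was put together here from general knowledge, and it holds *Shcbp1* and *Ago2*, known for protein contacts with TRIM71 rather than as bound transcripts. Of its 8 genes tested, 2 were higher and 4 lower past 1.5-fold in R255K cells at 0 h (20.6% and 19.3% of all genes), and 3 were higher and 1 lower at 8 h (46.7% and 10.2%). Their median log2 ratios were −0.61 and 0.20, against 0.06 and 0.49 over all genes. The kept share was over 1.5-fold higher in 6 and lower in 0 (44.2% and 9.39% of all genes), and its median log2 ratio was 0.88 against 0.41. *Egr1*, an immediate early transcription factor, gave 130 counts in WT and 1004 in R255K cells at 0 h (log2 ratio 3.11, and 2.78 with the GC trend subtracted), and *Cdkn1a*, an inhibitor of cyclin-dependent kinases, 270 and 527 (1.12). *Inhbb*, an activin subunit, had 2732 and 653 (−1.91, and −2.29 with the GC trend subtracted), *Shcbp1* 1328 and 445 (−1.42, and −0.50 with the GC trend subtracted) and *Rbl2*, a relative of the retinoblastoma protein under the level filter, 139 and 68 (−0.88). *Ago2* is in this list too. Of the 17 WT peaks on these genes 47.1% had no R255K counterpart, close to the share of all exonic peaks.

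The genes whose levels over the 6 libraries were most like each of the 6 were found by Pearson's r of log2(CPM + 1), where CPM is the count scaled to the library total. With 6 libraries that all genes share, high values are easy to reach and are given as a description. *Trim71* was nearest to *Ets2*, *Dip2b* and *Zswim4* (r = 0.999 each), *Hmga2* to *Capza1*, *Fubp1* and *Pgm3* (0.996 to 0.999) and *Dis3l2* to *Pnpla6*, *Parp1* and *Cystm1* (0.997 to 0.999). *Lin28a* was nearest to *Ddx23*, *Tubb3* and *Megf6* (0.993 to 0.995), *Lin28b* to *C2cd3*, *Angel2* and *Pcnx* (0.996 to 0.997) and *Dicer1* to *Aptx*, *Pgrmc1* and *Ndc1* (0.996 to 0.997). None of the 6 was among the 3 nearest genes of another.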

How the data were processed

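The authors discarded reads that matched rRNA with bowtie2 (2.2.6), aligned the others to mm10 with hisat2 and retained unique reads with Picard (2.16.0) and SAMtools (0.1.09). The deposited counts are whole numbers per gene that were not normalized, and the counting tool, annotation and strand setting are not given in the sources used here. Antisense genes shared 135 to 234 bp of exon with *Lin28a*, *Trim71* and *Hmga2* and had at most 6 counts in a library. For m6A the authors compared IP with input by MACS2, whose fold enrichment (a ratio at the summit) and −log10 q were deposited. How libraries of a genotype were combined is not stated.

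Levels were scaled to the summed counts of each library. The decay rate k averaged the log loss per hour (natural log) from 0 to 4 h and that from 0 to 8 h, and the half-life was the natural log of 2 over k. Intervals (95%) were exact for counts (Poisson) and ratios of counts (Clopper-Pearson) and otherwise by the delta method. A count under 3 was set to 3. Alternatives used TMM (edgeR 4.0.16, R 4.3.3, for this alone), median-of-ratios size factors, 85 ribosomal protein genes, *Gapdh*, other time intervals and a lowess (span 0.3, statsmodels 0.14.6) on exon GC content. *Gapdh* and other time intervals were used for kept shares and half-lives, not for levels. The lowess curve was subtracted with its level, so values with the GC trend subtracted are also centred on the other genes. Peaks were compared with bedtools 2.31.1 (overlap of 1 bp) and placed on GENCODE vM21, and sequences were read from GRCm38.p6 (mm10) with pysam 0.24.0. Other steps used matplotlib 3.10.9, scipy 1.17.1, pandas 2.3.3 and numpy 2.4.6 in Python 3.11.15. Half-life ratios were tested on simulated counts. A first run, with changed genes averaging at least 100 counts, missed the tolerance set for it. A second run, limited after that to genes averaging at least 1000 counts, met it. Simulated counts were scaled to the real library totals and not to their own sums, so neither run tested the scaling to summed counts. *Lin28b*, *Hmga2* and *Dis3l2* average fewer, and no half-life ratio is given for them.

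The 6 genes and the lists were chosen with earlier results of these data known. Other genes were named where they were past 1.5-fold at 0 h with at least 50 counts in a 0 h library, at most 6 per list by size of ratio, with the 3 most similar genes of each of the 6.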

Additional observations from a re-analysis of the deposited data

Results flagged for a closer look

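*Lin28b* and *Dicer1* changed in opposite directions from 0 to 8 h in the 2 genotypes, falling to 21.9% and 36.0% of the 0 h level in WT cells and standing at 176% and 119% in R255K cells. The ratios of the kept shares were 8.04 for *Lin28b* and 3.30 for *Dicer1*. With 1 library per genotype and time the difference was not tested between samples. Relative to *Gapdh* at 8 h, *Lin28b* stood at 7.34% in WT and 37.5% in R255K cells, and *Dicer1* at 12.0% and 25.2%. The ratios were 5.11 and 2.09. The half-life ratio of *Dicer1* relative to *Gapdh*, which also uses the 4 h libraries, went the opposite way (0.0384). With the GC trend subtracted in each library the ratios were 3.17 and 2.04. The ratio of R255K to WT at 0 h varied with base composition, and the part of this in the kept shares was not tested.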

How the results depend on the processing

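The number of the 6 genes past 1.5-fold was 1 at 0 h with library totals and 2 with TMM, with median-of-ratios size factors and relative to ribosomal protein genes, where *Lin28b* was added, and at 4 and 8 h it stayed within 4 to 5 with other members. At 4 h TMM, size factors and the GC trend dropped *Trim71* and added *Dis3l2*, and at 8 h they added *Dis3l2* while ribosomal protein genes added *Lin28a*. The number with a half-life ratio over 1.5 was 1, and it was 2 relative to ribosomal protein genes, where *Lin28a* was added, 0 relative to *Gapdh* and 3 from 4 to 8 h alone. The half-life ratio of *Trim71* was 0.529 relative to *Gapdh*, against 1.58 to 34.8 in the other settings. Its ratio of kept shares at 8 h relative to *Gapdh* was 2.00. The number with a kept share past 1.5-fold was 3, and it was 4 with TMM, size factors or *Gapdh*, 5 relative to ribosomal protein genes and 5 with the GC trend subtracted in each library, alternatives chosen after seeing the data. Of the WT peaks, 3 had no R255K counterpart, and 1 with at least 4-fold enrichment. The seed matches were 14 in the longest 3′UTRs and 14 in all annotated 3′UTR bases. Of 42 values of the ratio of kept shares in single genes under the alternatives, 11 changed sign, in *Lin28a*, *Hmga2* and *Dis3l2*, and 0 in *Lin28b*, *Trim71* and *Dicer1*. No paired analysis was possible because the groups compared share fewer than 2 replicate numbers, and a fit over the 6 libraries with time as a block was not run. The size of every ratio is limited by 1 library per group, and the depth behind the peak lists is unknown.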

Other observations

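Over the genes tested with a 3′UTR, the median log2 ratio of the share kept from 0 to 8 h (R255K to WT) was 0.45 over 9262 genes with 0 matches to the let-7 seed, 0.78 over 952 genes with 1, 1.06 over 124 genes with 2 or 3 and 1.17 over 9 genes with 4 or more. The median 3′UTR length moved with it, from 1010 to 2120, 3580 and 4260 bases, and its part was not tested. At 0 h the medians of these classes were 0.07, −0.01, 0.00 and −0.16. The 9 genes include *Lin28b*, *Trim71* and *Hmga2*, and *Nr6a1*, with 8 matches, had the most.

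*Tgfbr1*, a receptor of the TGF-β family in the let-7 target list, chosen here after its values were seen, gave 724, 152 and 29 counts in WT libraries at 0, 4 and 8 h, against 316, 427 and 190 from R255K cells, and a ratio of kept shares of 9.89. It was thus close to the value of *Lin28b*, and its exon GC content was 42.3%.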
